A study of Homo sapiens with 16 samples.

Results

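FOXM1 knockdown (FOXM1-KD) was compared with control in KG-1 cells that had all received AraC, with 2 RNA-seq libraries per group, 4 of the 16 libraries of the series. Of 43836 genes in the count table, 14965 had a mean of at least 10 counts over these 4 libraries and were tested, and 12695 of them were protein-coding. KG-1 is an established human acute myeloid leukemia (AML) line that grows in suspension as myeloblast-like cells. Control cells carried a non-target shRNA in the pLKO.1-puro lentiviral vector, FOXM1-KD cells carried an shRNA against FOXM1 delivered in the same way, and both arms were selected with puromycin. All 4 cultures were kept in 0.75 μM AraC for 48 h before RNA was isolated. The same knockdown was also compared with control in 4 libraries with 0.3% DMSO for 48 h and in 4 libraries with 100 nM venetoclax for 48 h, and these are used below only to show where the comparison under AraC differed. How many cell stocks were transduced per arm is not given in the sources used here. A property of a stock and an effect of the knockdown thus cannot be told apart. The p-values measure the spread between cultures, pooled over genes. In fits with the replicate number as a block, the difference between replicates that both arms share is removed from that spread.

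FOXM1 is a forkhead transcription factor of proliferating cells. It works with the MuvB complex and MYBL2 on genes that are expressed in the G2 and M phases, many of which carry the short promoter element called CHR (cell cycle genes homology region). AraC (cytarabine) is a deoxycytidine analog that enters cells through the nucleoside transporter SLC29A1, is phosphorylated by DCK, and stalls DNA synthesis once its triphosphate is incorporated. It is a standard drug in AML, and the comparison asks how the transcriptomes of cells with and without the FOXM1 shRNA differ while the drug is present.

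FOXM1 transcripts were present at 191 and 165 CPM in the control libraries and 125 and 118 CPM in the FOXM1-KD libraries (CPM are counts scaled to a common library total of 1e6 after TMM). Both knockdown libraries were below both controls, at 68.2% of the control mean. The log2 fold change was -0.55 ± 0.08 (n = 2 per group), with adjusted p = 8.97e-12 by the quasi-likelihood test of edgeR with the replicate number as a block. The value after ± here and below is an SE from that fit, which uses a spread pooled over genes. It can be smaller than the spread of a gene's own pairs, as in E2F5 (-3.60 ± 0.15, replicate pairs at -4.23 and -3.23). The difference stayed under the 2-fold limit used for calls, so FOXM1 was not called. Without the block the adjusted p was 0.0214. Fits with 1 of the 4 libraries left out had no block, and the log2 fold change ranged from -0.69 to -0.47 in them. The adjusted p did not stay below 0.1 when either control library was left out. The fall was larger in the other comparisons of the same cells, with log2 fold changes of -1.08 with DMSO and -1.20 under venetoclax, a difference of 0.59 from DMSO (adjusted p = 0.318 for the interaction in edgeR) and of 0.69 from venetoclax (adjusted p = 0.0545 with the block and 0.299 without it).

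Calls required both a difference of 2-fold or more and an adjusted p under 0.1. Under AraC, 5812 of the 14965 tested genes were called (38.8%), of which 2967 were higher in FOXM1-KD (19.8%) and 2845 were lower (19.0%). These shares are the background against which each gene list below is read. Of the called genes, 1338 rose and 1400 fell by less than 4-fold, and 548 rose and 574 fell by more than 64-fold. Of 1156 tested lncRNAs, 268 were higher and 273 lower (46.8% called), and of the 12695 protein-coding genes 2402 were higher and 2337 lower (37.3% called). Both replicate pairs showed the called direction in 4773 of the 4775 called genes that had counts in all 4 libraries, and both were at least 2-fold in 4243. The calls were made from these same pairs, so this describes the calls and does not test them.

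The FOXM1-KD libraries stood far apart from the control libraries. CD34, a surface antigen of stem and progenitor cells, had 13875 and 15037 counts in the control libraries and 4 and 0 in the FOXM1-KD libraries. At most 3 counts in both control libraries, together with detection in FOXM1-KD, were found for 613 genes, and 635 genes showed the reverse. Such genes reached the count minimum through 1 group alone, so a call was near certain in them. All 9 tested genes of chromosome Y had at most 3 counts in both FOXM1-KD libraries and were called lower. Calls were uneven over chromosomes, and on chromosome 8 a total of 228 of 437 protein-coding genes were called lower and 56 higher, with a median log2 fold change of -1.06. Chromosomes 13 (median -0.57), 6 (-0.48) and 17 (-0.47) also leaned lower, whereas chromosomes 4 (0.50), 16 (0.48), 18 (0.48) and 7 (0.44) leaned higher. Of the 7 markers of myeloblast-like KG-1 cells, KIT and HLA-DRA fell with CD34, while CD33, ANPEP, SPI1 and PTPRC had log2 fold changes between 0.24 ± 0.07 and 0.74 ± 0.09 and were not called. The 5 epithelial and 4 fibroblast markers summed to at most 0.491 CPM in every library, and the 4 T cell markers summed to 11.7 CPM in each control library and to 0.122 and 0.0545 CPM in FOXM1-KD. Of the 6 erythroid markers 5 had at most 3 counts in all 4 libraries, and KLF1 had 0 and 0 counts in the control libraries and 28 and 23 in the FOXM1-KD libraries. The 5 megakaryocyte markers summed to 68.6 and 57.6 CPM in control and 6.46 and 6.49 CPM in FOXM1-KD, and the 4 B cell markers to 5.30 and 5.13 CPM against 10.2 and 9.70 CPM, with PAX5 higher and CD79A lower. In bulk RNA, a change in the share of a cell type and a change of RNA per cell cannot be told apart. The part of these differences in the results below was not tested.

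**Figure D1:**
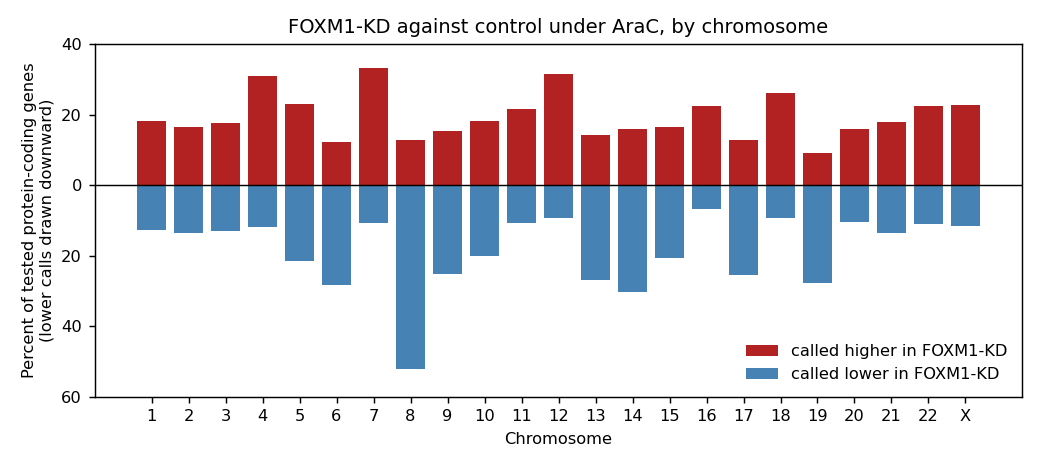
Percent of tested protein-coding genes called higher (upward bars) or lower (downward bars) in FOXM1-KD than in control under AraC, for each chromosome on the x axis. Chromosome 8 had the largest share of lower calls (52.2%) and chromosome 7 the largest share of higher calls (33.3%).

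**Figure D2:**
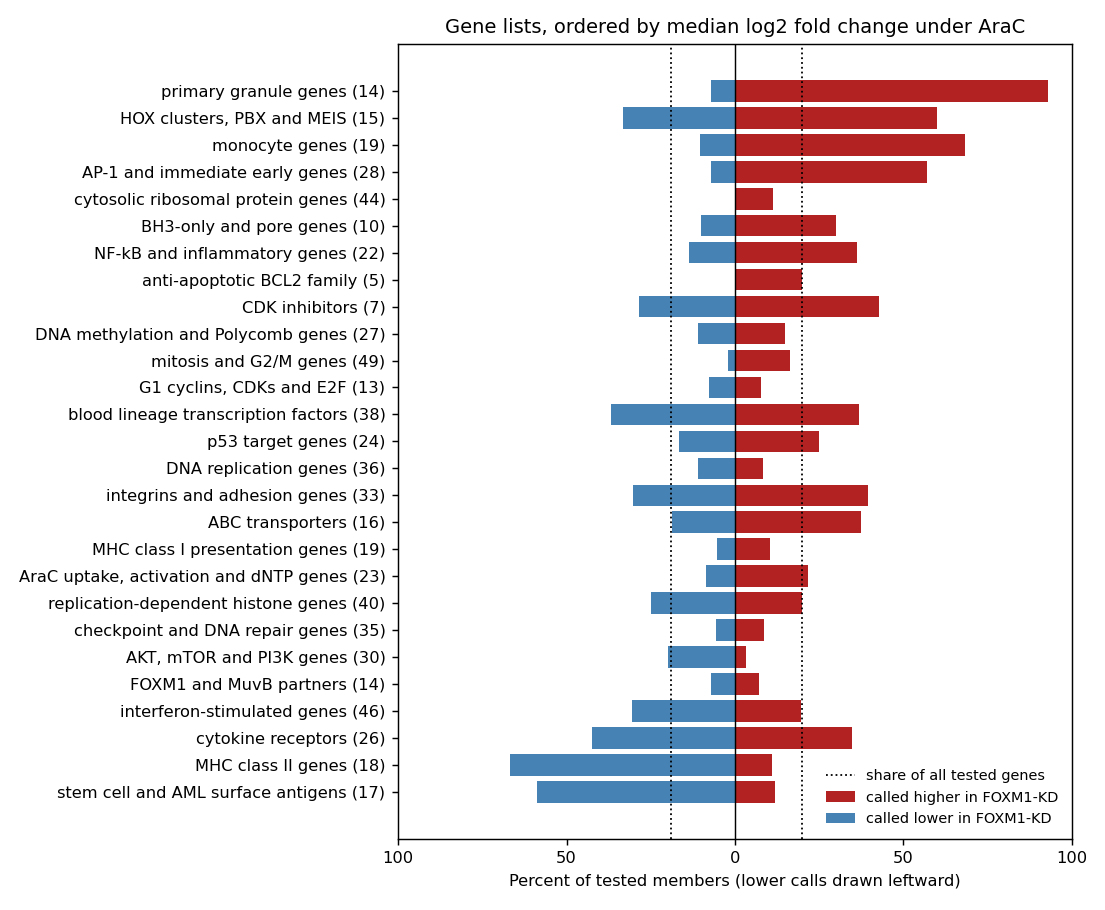
Percent of tested members called higher (right) or lower (left) in FOXM1-KD under AraC for 27 gene lists, with the number of tested members in parentheses and the shares of all tested genes as dotted lines (19.8% higher, 19.0% lower). Lists are ordered by the median log2 fold change of their tested members, from the primary granule genes at the top to the stem cell and AML surface antigens at the bottom.

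Of the genes that reached 10 counts in all 4 libraries, CXCL8 rose most. CXCL8, the neutrophil chemokine, was at 1.48 and 1.76 CPM in the control libraries and 313 and 399 CPM in the FOXM1-KD libraries, with a log2 fold change of 7.78 ± 0.13. The giant scaffold protein gene AHNAK was at 9.12 and 8.95 CPM in control against 1887 and 1934 CPM in FOXM1-KD (7.72 ± 0.10). CD4 (7.69 ± 0.14), the granule peroxidase MPO (7.34 ± 0.10), the calcium channel subunit CACNA2D4 (7.08 ± 0.15) and the NADPH oxidase subunit CYBB (6.78 ± 0.13) followed. The other genes of the 10 with the largest rise were TCIRG1 (6.41 ± 0.12), ADCY9 (6.25 ± 0.14), MAGI3 (6.10 ± 0.19) and NQO1 (6.09 ± 0.13). In none of these 10 genes did the groups overlap, which their choice by size of rise made near certain.

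Under the same limit of 10 counts in all 4 libraries, the largest falls were in STAB1, a scavenger receptor gene, at 393 and 271 CPM in control against 0.792 and 0.6 CPM in FOXM1-KD (-8.88 ± 0.15), and in the histone gene H2AC14 (-7.66 ± 0.17). PLEKHG3 (-7.66 ± 0.15), MTSS1 (-7.62 ± 0.12), SCRN1 (-7.61 ± 0.14), the granule protease gene PRSS57 (-7.61 ± 0.15) and ITM2A (-7.21 ± 0.11) were next. PALM (-7.19 ± 0.17), the death-associated kinase gene DAPK1 (-7.17 ± 0.16) and the interferon-stimulated gene EPSTI1 (-6.87 ± 0.14) completed the 10. ITM2A, the most abundant of them in control cells, was at 790.4 and 756 CPM in the control libraries and 5.3 and 5.12 CPM in the FOXM1-KD libraries.

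Some genes were present in only one group of libraries at this depth, where 3 counts correspond to 0.151 to 0.183 CPM. The RNA-binding protein gene IGF2BP1 had 0 and 2 counts in the control libraries and 4562 and 4900 in the FOXM1-KD libraries, which is at least 1730-fold higher in FOXM1-KD against a floor of 3 counts per library. EPB41L3 (at least 1590-fold), the phosphodiesterase gene PDE3B (at least 1220-fold), the granule protease gene PRTN3 (at least 1090-fold) and the coagulation factor gene F13A1 (at least 1010-fold) were the other most abundant protein-coding genes of this kind. In the other direction RAB27B, a small GTPase gene of vesicle secretion, had 7414 and 10798 counts in the control libraries and 3 and 2 in the FOXM1-KD libraries and was at least 2740-fold lower. STON2 (at least 2300-fold lower), the lymphoid receptor gene CD96 (at least 1570-fold), MMRN1 (at least 1540-fold) and the histone gene H3C8 (at least 1320-fold) were also at the floor in both knockdown libraries. Here and below such folds take 3 counts per library for the group at the floor. They are not confidence limits and cover neither the error of small counts nor the spread between cultures.

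Most partners of FOXM1 were not called. Of 14 genes for FOXM1, the MuvB complex, MYBL2, RB family members and their E2F and DP partners, all were tested, 1 was called higher and 1 lower, and the median log2 fold change was -0.16, beside -0.01 over all tested genes. RBL2, the pocket protein p130 of the repressive DREAM complex, was at 80.1 and 81.3 CPM in the control libraries and 171 and 171 CPM in the FOXM1-KD libraries (1.08 ± 0.08). E2F5, a repressor E2F, was at 36.5 and 45.1 CPM in control against 1.95 and 4.8 CPM in FOXM1-KD (-3.60 ± 0.15). MYBL2, which joins MuvB before FOXM1 does, was at 474 and 420.1 CPM in control against 741 and 598 CPM in FOXM1-KD and was not called (0.58 ± 0.07). LIN9, LIN54, RBBP4 and LIN37 of the MuvB core had log2 fold changes from -0.18 to 0.72, and LIN52 had -0.78 ± 0.12.

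All 49 mitosis and G2/M genes were tested, and these include many known FOXM1 targets. Under AraC 8 were called higher in FOXM1-KD and 1 lower, 40 were not called, and the median log2 fold change was 0.18. The 8 were HMMR, PLK1, PTTG1, AURKA, ESPL1, CDC20, UBE2C and NDC80, and the one that fell was NUSAP1. In all 18.4% of the list was called, beside 38.8% of all tested genes. PLK1, the polo-like kinase that drives mitotic entry, was at 25.02 and 19.97 CPM in the control libraries and 124 and 100.1 CPM in the FOXM1-KD libraries, a 4.98-fold rise (2.32 ± 0.09). HMMR, a spindle-associated hyaluronan receptor, was at 10.9 and 16.4 CPM in control against 63.1 and 109.5 CPM in FOXM1-KD (2.65 ± 0.11), and PTTG1, the securin that restrains separase, was at 12.1 and 10.7 CPM in control against 50.7 and 46.5 CPM in FOXM1-KD (2.09 ± 0.11). AURKA, the centrosomal Aurora kinase, was at 46.1 and 39.9 CPM in control against 122 and 122 CPM in FOXM1-KD (1.51 ± 0.09). In each of these genes, which had been called higher from the same libraries, both knockdown libraries were above both controls.

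The separase gene ESPL1 (1.45 ± 0.08) and the APC/C coactivator CDC20 (1.40 ± 0.09) also rose, as did UBE2C, the ubiquitin-conjugating enzyme of the APC/C, at 23.4 and 19.01 CPM in control against 56.9 and 41.3 CPM in FOXM1-KD (1.20 ± 0.10), and the kinetochore gene NDC80 (1.03 ± 0.08). NUSAP1, a spindle microtubule protein, fell from 255 and 319 CPM to 111 and 144 CPM (-1.17 ± 0.08). AURKB, CDK1 and CENPF were not called. AURKB, the kinase of the chromosomal passenger complex, was at 91.2 and 81.3 CPM in control against 63.5 and 47.9 CPM in FOXM1-KD (-0.64 ± 0.09). CDK1, the mitotic cyclin-dependent kinase, had a log2 fold change of -0.13 ± 0.08 and CENPF, a kinetochore protein, 0.38 ± 0.08. CENPE (0.97 ± 0.09) was just under 2-fold and was called without the replicate block.

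**Figure D3:**
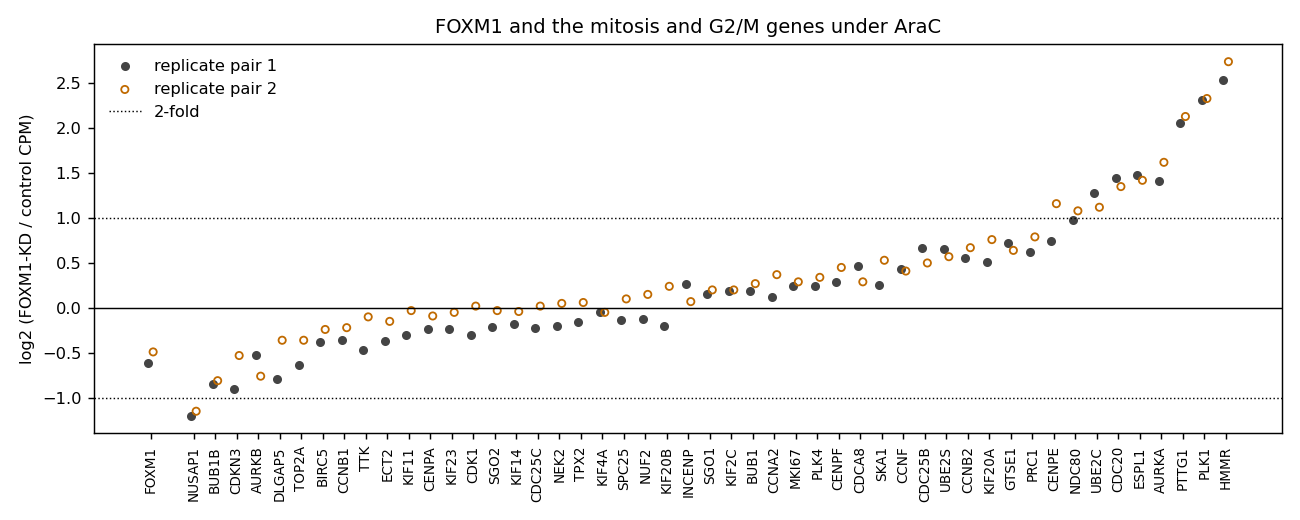
Log2 ratio of FOXM1-KD to control CPM under AraC on the y axis for FOXM1 and the 49 mitosis and G2/M genes on the x axis, with 1 point for each replicate pair and dotted lines at 2-fold. FOXM1 lies below 0 in both pairs, most genes lie between the dotted lines, and HMMR and PLK1 are the highest.

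Promoter sequences are shown for 3 mitotic genes that rose and for CDK1, which was not called, since all of them hold the CHR letters TTTGAA. Of the 12695 tested protein-coding genes, 10337 were matched by symbol to a RefSeq promoter (GRCh38.p14), and the 250 bases before the annotated start were searched on both strands. TTTGAA was found in 22 of 44 matched mitosis and G2/M promoters (50.0%) and in 896 of all 10337 promoters (8.7%). Within the list it was found in 4 of the 6 matched genes that rose, 0 of the 1 that fell and 18 of the 37 not called (48.6%). CCAAT, which does not overlap TTTGAA in letters, was found in 34 of the 44 (77.3%) and in 35.3% of all. Among all matched genes TTTGAA was found in 9.6% of those called higher, 9.4% of those called lower and 8.2% of those not called. A match is a description of the letters and not a bound site. The promoters of PLK1 (chr16:23678639-23678888), CDC20 (chr1:43358731-43358980), HMMR (chr5:163460382-163460631) and CDK1 (chr10:60778081-60778330), all on the plus strand, are printed with TTTGAA or its reverse complement in capitals.
PLK1: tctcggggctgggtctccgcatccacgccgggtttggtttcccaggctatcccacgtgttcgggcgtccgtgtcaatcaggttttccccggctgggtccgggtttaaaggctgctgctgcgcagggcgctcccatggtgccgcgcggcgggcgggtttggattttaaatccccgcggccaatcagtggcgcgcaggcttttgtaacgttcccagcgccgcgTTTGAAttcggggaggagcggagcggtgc
CDC20: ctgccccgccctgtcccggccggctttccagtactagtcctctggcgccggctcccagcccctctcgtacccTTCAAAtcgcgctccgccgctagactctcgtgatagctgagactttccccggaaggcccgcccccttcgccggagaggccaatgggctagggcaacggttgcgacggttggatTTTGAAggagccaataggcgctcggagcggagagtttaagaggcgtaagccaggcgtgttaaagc
HMMR: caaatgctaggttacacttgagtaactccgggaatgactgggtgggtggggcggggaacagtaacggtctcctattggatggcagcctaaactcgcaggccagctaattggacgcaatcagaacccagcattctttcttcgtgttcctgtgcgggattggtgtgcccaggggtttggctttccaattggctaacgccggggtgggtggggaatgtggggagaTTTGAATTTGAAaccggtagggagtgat
CDK1: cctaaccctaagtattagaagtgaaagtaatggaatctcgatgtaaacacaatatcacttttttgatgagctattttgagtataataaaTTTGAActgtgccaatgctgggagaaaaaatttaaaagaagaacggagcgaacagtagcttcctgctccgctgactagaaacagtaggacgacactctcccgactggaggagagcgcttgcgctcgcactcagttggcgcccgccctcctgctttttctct

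DNA replication genes were nearly balanced, with 3 of 36 called higher and 4 lower and a median log2 fold change of 0.04. The primase gene PRIM1 (1.51 ± 0.09), the helicase subunit MCM7 (1.35 ± 0.08) and the polymerase alpha subunit POLA2 (1.23 ± 0.08) rose. MCM7 was at 224 and 199 CPM in control against 588 and 495 CPM in FOXM1-KD. RPA1, the single-strand binding protein (-1.35 ± 0.08), WDHD1 (-1.28 ± 0.08), MCM10 (-1.18 ± 0.08) and the polymerase epsilon subunit POLE2 (-1.13 ± 0.10) fell.

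Checkpoint and DNA repair genes, which respond to replication stalled by nucleoside analogs, were called in 5 of 35 cases, 3 higher and 2 lower, with a median of -0.10. TIMELESS of the fork protection complex (1.68 ± 0.08), the damage-marked histone gene H2AX (1.09 ± 0.08) and the kinase gene ATM (1.07 ± 0.07) rose. ATM was at 227 and 263 CPM in control against 448 and 589.5 CPM in FOXM1-KD. MRE11, the nuclease of the MRN complex (-1.65 ± 0.08), and the checkpoint loader RAD17 (-1.34 ± 0.10) fell. ATR (0.18 ± 0.08), CHEK1 (-0.42 ± 0.08), CHEK2 (-0.44 ± 0.09), and WEE1 (-0.08 ± 0.08) were not called.

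Genes that move AraC into the cell, activate it and set the deoxynucleotide pools were called in 7 of the 23 tested (26 listed), 5 higher and 2 lower. SAMHD1, the phosphohydrolase that removes deoxynucleotide triphosphates and the triphosphate of AraC, was at 25.1 and 24.3 CPM in the control libraries and 263 and 279.8 CPM in the FOXM1-KD libraries, an 11.0-fold rise (3.46 ± 0.09). SLC28A3, a concentrative nucleoside transporter, had 3 and 0 counts in the control libraries and 44 and 42 in the FOXM1-KD libraries, at least 15.8-fold higher. The equilibrative transporter SLC29A2 (1.16 ± 0.11), the mitochondrial thymidine kinase TK2 (1.29 ± 0.16) and the dCMP deaminase DCTD (1.20 ± 0.09) rose as well. The nucleoside diphosphate kinase gene NME2 fell (-1.28 ± 0.21) and shares sequence with its neighbor NME1 (-0.85 ± 0.09) so that reads may be split between them.

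The main steps of AraC uptake and activation were not called. DCK, which carries out the first phosphorylation, was at 93.95 and 116 CPM in control against 106 and 141 CPM in FOXM1-KD (0.22 ± 0.08), and SLC29A1, the main uptake transporter, was at 285 and 221 CPM in control against 170 and 127 CPM in FOXM1-KD (-0.77 ± 0.08). The ribonucleotide reductase subunits RRM1 (0.12 ± 0.07) and RRM2 (0.85 ± 0.07) and the 5'-nucleotidase NT5C2 (-0.72 ± 0.08) were also under 2-fold. CDA, the deaminase that inactivates AraC, had 0 and 0 counts in the control libraries and 12 and 10 in the FOXM1-KD libraries. It was below the count minimum and was not tested. Among the 16 tested ABC transporters 6 were called higher and 3 lower, and ABCB1, the multidrug efflux pump, was at 139.9 and 162 CPM in control against 3.41 and 4.85 CPM in FOXM1-KD (-5.19 ± 0.12). ABCB4 (4.83 ± 0.21), its neighbor with related sequence, moved the other way.

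Replication-dependent histone genes split in both directions, with 8 of 40 called higher and 10 lower. H4C4 had 2 and 0 counts in the control libraries and 2010 and 1823 in the FOXM1-KD libraries (at least 705-fold higher), and the linker histone genes H1-3 (2.34 ± 0.11), H1-4 (1.52 ± 0.08) and H1-2 (1.14 ± 0.08) rose. Against these, H1-5 had 6284 and 8703 counts in the control libraries and 4 and 1 in the FOXM1-KD libraries. H3C7 (at least 880-fold lower) and H2BC10 (at least 301-fold lower) were at the floor in both knockdown libraries, as were H2BC9, H3C6, H3C8 and H2BC14. Many of these copies are near-identical in sequence, so their counts are uncertain.

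Of the CDK inhibitors, 5 of 7 genes were called, beside 38.8% of all genes. Of the 7, 1 had at most 3 counts in both control libraries and 1 in both FOXM1-KD libraries. These reached the count minimum through the other group alone, so their calls were near certain. CDKN1A, the p53-induced inhibitor p21, was at 9.94 and 10.8 CPM in the control libraries and 67.9 and 45.1 CPM in the FOXM1-KD libraries (2.42 ± 0.11). CDKN2A, which encodes p16 and ARF, had 5 and 7 counts in the control libraries and 431 and 338 in the FOXM1-KD libraries (6.11), and its neighbor CDKN2B had 0 and 0 counts in the control libraries and 59 and 58 in the FOXM1-KD libraries (at least 21.5-fold higher). CDKN2D fell (-1.07 ± 0.15), and CDKN1C fell, with 80 and 58 counts in the control libraries and 1 and 1 in the FOXM1-KD libraries. Of the 13 G1 cyclin, CDK and E2F genes only CCND1, with 5 and 4 counts in the control libraries and 324 and 314 in the FOXM1-KD libraries, was called higher, and CCNE2 (-1.55 ± 0.08) was the one called lower.

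Of 24 tested p53 target genes, 6 rose and 4 fell, with a median of 0.06. TP53I3 was at least 45.6-fold higher, and TNFRSF10B, the death receptor DR5 (1.93 ± 0.09), PMAIP1 (1.78 ± 0.09) and CDKN1A were among those that rose. ZMAT3 (-3.08 ± 0.09), SESN1 (-2.69 ± 0.11), FDXR (-1.40 ± 0.14) and RRM2B (-1.10 ± 0.09) fell, and MDM2, the ubiquitin ligase of p53, was not called (-0.95 ± 0.08). BTG2 rose under AraC (1.05 ± 0.09) and was lower with DMSO (-1.30), a difference of 2.41 that passed the test of the interaction.

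Of the genes that control outer-membrane permeability, the BCL2 family members that block apoptosis were called in 1 of 5 tested. BCL2L1, which encodes BCL-XL, was at 56.9 and 50.9 CPM in control against 30.9 and 25.8 CPM in FOXM1-KD (-0.93 ± 0.10), just under 2-fold. BCL2 (0.32 ± 0.08) and MCL1 (0.55 ± 0.08) were not called, and BCL2L2, which encodes BCL-W, rose (1.11 ± 0.12). Among 10 tested BH3-only and pore genes 3 rose, namely BIK (3.02), PMAIP1, which encodes NOXA, at 37.96 and 50.05 CPM in control against 136 and 165 CPM in FOXM1-KD, and BCL2L11, which encodes BIM (1.61 ± 0.09). BOK was at least 7.32-fold lower, and BAX (0.10 ± 0.09) and BAK1 (0.29 ± 0.09) were not called.

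Of 30 tested AKT, mTOR and PI3K pathway genes, 1 rose and 6 fell. The 6 were PRR5L, DEPTOR, PRR5, FOXO1, INPP4B and PIK3R1. PRR5L, an mTORC2-associated protein, was at 116 and 104 CPM in the control libraries and 1.71 and 1.2 CPM in the FOXM1-KD libraries (-6.25 ± 0.15), and the mTORC2 subunit gene PRR5 (-3.43 ± 0.14) and the mTOR inhibitor DEPTOR (-3.82 ± 0.17) were also lower. FOXO1, a forkhead factor held in check by AKT (-2.80 ± 0.12), the lipid phosphatase INPP4B (-2.65 ± 0.09) and the PI3K regulatory subunit PIK3R1 (-1.40 ± 0.08) fell too. PIK3CG was called higher (1.23 ± 0.09). MTOR was at 248 and 214 CPM in control against 277 and 232 CPM in FOXM1-KD (0.14 ± 0.08), RICTOR, the defining subunit of mTORC2, had -0.17 ± 0.08, and AKT2 had -0.08 ± 0.08. AKT1 was at 135 and 112 CPM in control against 281 and 213 CPM in FOXM1-KD (0.99 ± 0.08), and it was called without the block. These kinases and RICTOR were within 2-fold, whereas PRR5 and PRR5L were not.

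Only 15 of 38 HOX, PBX and MEIS genes had enough counts to be tested, and 14 of those were called, 9 higher and 5 lower. Of the 15, 6 had at most 3 counts in both control libraries and 2 in both FOXM1-KD libraries. These reached the count minimum through the other group alone, so the share called was largely set by the filter. HOXA13 had 0 and 0 counts in the control libraries and 206 and 345 in the FOXM1-KD libraries (at least 99.6-fold higher). HOXA7 (at least 53.5-fold), HOXA11 (at least 40.0-fold), HOXA5 (at least 36.6-fold), HOXA6 (at least 15.0-fold) and HOXA3 (at least 7.06-fold) were likewise at or below 3 counts in both control libraries. HOXA9, the HOX gene most often discussed in AML, had 884 and 1145 counts in the control libraries and 2 and 10 in the FOXM1-KD libraries, so the cluster did not move in 1 direction. HOXA10 was not called (-0.63 ± 0.11). MEIS1, the cofactor of HOXA9, was at least 175-fold lower, HOXB2 was at least 244-fold lower, and PBX3 fell (-2.18 ± 0.11).

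Primary granule genes had the largest median of the 27 lists. Of 18 listed, 14 were tested and every one of these was called, 13 higher and 1 lower, with a median log2 fold change of 6.46. Of the 14, 6 had at most 3 counts in both control libraries and reached the count minimum through FOXM1-KD alone. These proteases and antimicrobial proteins are made at the promyelocyte stage of granulocyte development. MPO was at 13.2 and 9.91 CPM in the control libraries and 2172 and 1574 CPM in the FOXM1-KD libraries. ELANE, the neutrophil elastase, had 0 and 0 counts in the control libraries and 2272 and 1782 in the FOXM1-KD libraries, and AZU1 had 0 and 0 counts in the control libraries and 1536 and 1222 in the FOXM1-KD libraries (bounds of 748-fold for ELANE and 509-fold for AZU1). CTSG, another serine protease of these granules, was at 9.23 and 9.41 CPM in control against 194 and 159 CPM in FOXM1-KD (4.23 ± 0.10), LYZ, the lysozyme gene, at 33.9 and 41.1 CPM in control against 1349 and 1590 CPM in FOXM1-KD (5.29 ± 0.09), and the granule proteoglycan gene SRGN at 145 and 153 CPM in control against 894 and 981 CPM in FOXM1-KD (2.65 ± 0.08). PRSS57, a granule protease of the same group, was the exception at 231 and 169 CPM in control against 1.1 and 0.927 CPM in FOXM1-KD. Per kilobase of exon, the FOXM1-KD level was 423 CPM for MPO, 852 for LYZ, 156 for PRTN3 and 115 for ELANE.

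Of 27 monocyte genes 19 were tested, and 13 were called higher and 2 lower (median 3.03). Of the 19, 3 had at most 3 counts in both control libraries. TLR2, a pattern receptor, was at least 638-fold higher, with 0 and 0 counts in the control libraries and 1544 and 1956 in the FOXM1-KD libraries, and MNDA was at least 153-fold higher. CD14, the lipopolysaccharide co-receptor, had 1 and 0 counts in the control libraries and 118 and 84 in the FOXM1-KD libraries, and CSF1R, the receptor for macrophage colony-stimulating factor, was at 2.08 and 1.86 CPM in control against 19.2 and 14.9 CPM in FOXM1-KD (3.11 ± 0.19). TLR4 (5.80 ± 0.19), SERPINA1 (4.99 ± 0.19), CD86 (4.29 ± 0.15) and VCAN (2.55 ± 0.08) rose. ITGAM, the CD11b integrin chain, fell from 203 and 179 CPM to 23.5 and 19.7 CPM (-3.15 ± 0.09), and FCER1G fell as well (-1.23 ± 0.18). S100A8, S100A9 and FCN1, which mark mature monocytes, were below the count minimum. The 5 granulocyte precursor markers summed to 22.4 and 19.4 CPM in control and 2800 and 2040 CPM in FOXM1-KD, and the 7 monocyte markers to 78.5 and 90.0 CPM against 1620 and 1890 CPM. LYZ, which is also counted among the granule genes, made up 1349 and 1590 CPM of the latter sums.

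Surface antigens of stem cells and AML blasts went mostly down, with 10 of 17 tested called lower, 2 higher, and a median of -4.00. Of the 17, 4 had at most 3 counts in both FOXM1-KD libraries. CD96, CD34, IL2RA, CD7 and TNFRSF4 had at most 4 counts in either knockdown library. KIT, the stem cell factor receptor, was at 44.8 and 48.1 CPM in control against 1.16 and 1.09 CPM in FOXM1-KD (-5.37 ± 0.18), and CD38 at 212 and 226 CPM in control against 5.79 and 6.05 CPM in FOXM1-KD (-5.21 ± 0.11). ITGA6 (-4.00 ± 0.09) and CD44, the adhesion receptor for hyaluronan (-1.56 ± 0.07), fell, while CLEC12A (2.32 ± 0.12) and the receptor kinase gene FLT3 (1.70 ± 0.10) rose.

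**Figure D4:**
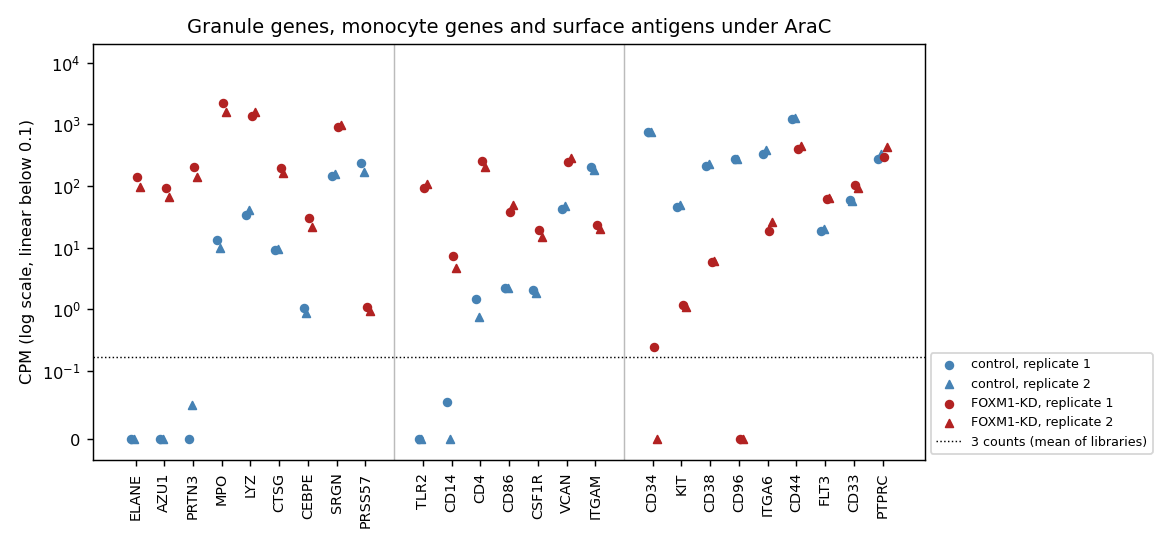
TMM-scaled CPM of primary granule genes (left), monocyte genes (middle) and surface antigens (right) in each of the 4 libraries under AraC, on a y axis that is logarithmic above 0.1 CPM and linear below, with a dotted line at 3 counts. The left block also holds CEBPE, a transcription factor gene. Control and FOXM1-KD points do not overlap in any gene shown except PTPRC, and PRSS57, ITGAM and the antigens from CD34 to CD44 lie lower in FOXM1-KD. All genes shown except CD33 and PTPRC had been called from these same libraries.

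Lineage transcription factors were called in 28 of 38 tested cases, 14 in each direction. Of the 38, 4 had at most 3 counts in both control libraries and 2 in both FOXM1-KD libraries. These reached the count minimum through the other group alone, so their calls were near certain. CEBPA, the factor of granulocyte and monocyte commitment, was at 92.3 and 76.7 CPM in the control libraries and 627 and 449.9 CPM in the FOXM1-KD libraries (2.66 ± 0.08), and CEBPE (4.78 ± 0.20), which acts later in granulocyte development, GFI1 (2.73 ± 0.09), RUNX2 (3.64 ± 0.12) and IRF8 (5.75 ± 0.16) rose as well. BACH2 (at least 68.0-fold) and TCF7 (at least 62.1-fold), which are better known from lymphocytes, and KLF4 (6.31) were also higher. GATA2, a factor of stem and progenitor cells, was at 476 and 388 CPM in control against 72.1 and 56.1 CPM in FOXM1-KD (-2.75 ± 0.08). GFI1B, of the erythroid and megakaryocyte lineage, had 1965 and 1622 counts in the control libraries and 6 and 2 in the FOXM1-KD libraries, and IKZF2 (-6.71 ± 0.12), ERG (-4.55 ± 0.11) and MEF2C (-2.57 ± 0.10) fell. SPI1 (0.40 ± 0.08), RUNX1 (0.44 ± 0.07), LMO2 (-0.02 ± 0.08) and MYB (-0.52 ± 0.07) were not called.

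MHC class II genes mostly fell, with 12 of 18 called lower and 2 higher (median -1.95). CIITA, the coactivator that switches these genes on, was at 288 and 244 CPM in the control libraries and 82.4 and 63.1 CPM in the FOXM1-KD libraries (-1.88 ± 0.08). HLA-DRA was at 787 and 726 CPM in control against 222 and 215 CPM in FOXM1-KD (-1.79 ± 0.08), HLA-DPB1 at 208 and 189.8 CPM in control against 19.7 and 18.7 CPM in FOXM1-KD (-3.37 ± 0.09), and HLA-DQB1, which fell most, at 146 and 124 CPM in control against 1.58 and 1.64 CPM in FOXM1-KD (-6.38 ± 0.14). These genes are polymorphic and have close paralogs, so their counts may be split. The invariant chain gene CD74 (0.54 ± 0.07) and the RFX factors RFX5 (0.81 ± 0.08), RFXANK (0.18 ± 0.10) and RFXAP (-0.65 ± 0.11), which bind the shared promoter boxes, were not called. MHC class I presentation genes were called in 3 of 19 cases, and HLA-B (0.92 ± 0.07), B2M (-0.66 ± 0.07) and TAP1 (-0.01 ± 0.09) were not among them.

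Interferon-stimulated genes split by member, with 9 of 46 called higher and 14 lower (median -0.37). Those called higher included the oligoadenylate synthetase gene OAS3 at 1.64 and 1.31 CPM in control against 31.98 and 22.2 CPM in FOXM1-KD (4.19 ± 0.18), the antiviral GTPase MX2 (4.28 ± 0.23), OAS1 (3.01 ± 0.27) and XAF1 (2.80 ± 0.13). STAT2, a signal transducer of interferon receptors, also rose, at 42.3 and 38.1 CPM in control against 142 and 109.6 CPM in FOXM1-KD (1.64 ± 0.09). RSAD2, which encodes viperin, fell from 111 and 117 CPM to 0.975 and 0.981 CPM (-6.86 ± 0.16). GBP4 (at least 417-fold lower), EPSTI1, IFITM1 (-6.64), CMPK2 (-5.25 ± 0.11) and IFIT1 (-3.10 ± 0.23) fell too.

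The interferon-stimulated response element was searched on both strands as GAAA, any 2 bases, and GAAA. It was found in 19 of 35 matched promoters of the list (54.3%) and in 262 of all 10337 (2.5%). It was found in 7 of 11 matched members called lower, 1 of 5 called higher and 11 of 19 not called, so members with these letters were in all 3 classes. The promoters of IFIT1 (chr10:89392373-89392622) and IFIT3 (chr10:89327747-89327996), which fell (-2.04 ± 0.13 for IFIT3), and of OAS3 (chr12:112938224-112938473), which rose, are given for the 250 bases before the RefSeq start on the plus strand of GRCh38.p14, with the matches in capitals.
IFIT1: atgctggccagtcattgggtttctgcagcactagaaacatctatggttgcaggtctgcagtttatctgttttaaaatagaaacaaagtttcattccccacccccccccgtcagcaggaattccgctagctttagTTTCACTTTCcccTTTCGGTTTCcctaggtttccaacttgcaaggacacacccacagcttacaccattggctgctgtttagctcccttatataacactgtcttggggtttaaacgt
IFIT3: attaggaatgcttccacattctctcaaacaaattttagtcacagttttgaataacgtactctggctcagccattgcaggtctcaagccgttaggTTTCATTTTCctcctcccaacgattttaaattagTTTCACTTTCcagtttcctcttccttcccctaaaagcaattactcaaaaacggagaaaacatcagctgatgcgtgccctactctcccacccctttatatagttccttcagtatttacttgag
OAS3: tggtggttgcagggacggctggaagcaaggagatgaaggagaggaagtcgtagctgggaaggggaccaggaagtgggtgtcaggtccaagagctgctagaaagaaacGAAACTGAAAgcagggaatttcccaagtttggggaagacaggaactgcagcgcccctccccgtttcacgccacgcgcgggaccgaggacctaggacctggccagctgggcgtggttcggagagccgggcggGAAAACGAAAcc

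NF-kB and inflammatory genes were called in 11 of 22 tested cases, 8 higher and 3 lower. TNF had 7 and 2 counts in the control libraries and 3584 and 3322 in the FOXM1-KD libraries (9.68), and the chemokine genes CCL2 (6.95), CCL3 (5.30 ± 0.19), CCL4 (3.29 ± 0.26) and CCL5 (2.26 ± 0.10) rose with CXCL8. The subunit gene NFKB2 was at 33.4 and 31.8 CPM in control against 109.6 and 87.98 CPM in FOXM1-KD (1.59 ± 0.09), while NFKB1 (0.29 ± 0.08), RELA (0.27 ± 0.08) and the feedback inhibitor NFKBIA (0.43 ± 0.09) were not called. ICAM1, an adhesion molecule induced by NF-kB (-3.24 ± 0.10), IL1B (-2.15 ± 0.10) and CXCL2 (-1.92 ± 0.17) fell.

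AP-1 and immediate early genes were called higher in 16 of 28 cases and lower in 2 (median 1.32). JUN was at 10.5 and 10.9 CPM in the control libraries and 166 and 153 CPM in the FOXM1-KD libraries (3.90 ± 0.10), FOS at 2.68 and 3.42 CPM in control against 77.9 and 67.2 CPM in FOXM1-KD (4.56 ± 0.14) and EGR1 at 1.53 and 1.51 CPM in control against 37.1 and 32.5 CPM in FOXM1-KD (4.51 ± 0.17). FOSB (4.22 ± 0.18), NR4A1 (4.86) and ATF3, the stress-induced member (2.19 ± 0.11), rose, and the orphan receptor gene NR4A2 was at least 44.9-fold higher. DUSP6 (-2.63 ± 0.08) and SPRY1 (-3.27 ± 0.14), both feedback inhibitors of ERK signaling, were the 2 that fell, while SPRY4 (2.83 ± 0.15), of the same family, rose.

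Cytokine receptors were called in 20 of 26 tested cases, 9 higher and 11 lower. The chemokine receptor gene CXCR4 was at 6.94 and 4.98 CPM in control against 206 and 173 CPM in FOXM1-KD (4.99 ± 0.11), and IL10RA (3.62 ± 0.17), CCR1 (3.30 ± 0.18) and IL17RA (2.81 ± 0.08) rose. IL2RG (-2.34 ± 0.09), IL6R (-1.67 ± 0.08) and CSF3R, the G-CSF receptor (-1.62 ± 0.08), fell. Integrin and adhesion genes were called higher in 13 and lower in 10 of 33 cases. Of the 33, 4 had at most 3 counts in both control libraries and 1 in both FOXM1-KD libraries, so their calls were near certain. ANXA2 had 1 and 2 counts in the control libraries and 2089 and 2234 in the FOXM1-KD libraries (at least 791-fold higher), its partner S100A10 fell (-1.62 ± 0.10), and the intermediate filament gene VIM was at 14.2 and 11.5 CPM in control against 604 and 539 CPM in FOXM1-KD (5.48 ± 0.10).

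Chromatin regulators were called in 7 of 27 cases, 4 higher and 3 lower. EZH2, the histone methyltransferase of PRC2 (1.17 ± 0.08), TET2 (1.17 ± 0.08), CBX7 (1.34 ± 0.20) and HDAC9 (2.27 ± 0.10) rose. The de novo DNA methyltransferase DNMT3B was at 252 and 219 CPM in control against 18.1 and 14.8 CPM in FOXM1-KD (-3.84 ± 0.10), and the PRC1 members CBX2 (-2.45 ± 0.08) and BMI1 (-2.25 ± 0.10) fell with it, while DNMT1 (-0.01 ± 0.07) and DNMT3A (0.05 ± 0.10) were not called. Cytosolic ribosomal protein genes were called in 5 of 44 cases, all higher, with a median of 0.56 and a largest value in RPS14 (1.99 ± 0.08).

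Most calls were shared with the comparison of the same arms without AraC. Of 14127 genes tested under both AraC and DMSO, 5167 were called under AraC and 4900 with DMSO, and 3891 were called in the same direction, which is 75.3% of the AraC calls and 79.4% of the DMSO calls. Of all 14527 genes tested with DMSO, 5075 were called (34.9%). Only 8 were called in opposite directions. Against venetoclax, 3880 of 14055 genes were called in the same direction in both (76.0% of the 5105 AraC calls and 71.8% of the 5403 venetoclax calls, where 38.6% of all genes tested under venetoclax were called) and 27 in opposite directions. The comparisons share no library, and whether they share transduced cell stocks is not given in the sources used here.

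Differences between the effect under AraC and with DMSO were tested as an interaction over 8 libraries. Of 14850 genes, 843 were called (5.68%), 648 with a more positive effect under AraC (4.36%) and 195 with a more negative one (1.31%). With 1 library left out the number of calls ranged from 334 (without control DMSO replicate 2) to 1293 (without FOXM1-KD DMSO replicate 1), and it moved by over 1.5 times in 7 of the 8 such fits, so the list counts below hold for the fit with all 8 libraries. Of the 616 genes with a more positive effect that were tested in both comparisons, 215 were lower in FOXM1-KD in both, 164 were lower with DMSO and not called under AraC, and 121 were called higher under AraC alone. Of the 193 with a more negative effect, 84 were higher in FOXM1-KD in both comparisons. Among genes with a more positive effect, those lower in FOXM1-KD with DMSO therefore outnumbered those not called with DMSO.

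Where all 8 libraries had 10 counts or more, IL1B, the inflammatory cytokine, had the largest called difference. It was at 103 and 134 CPM in control and 0.762 and 1.11 CPM in FOXM1-KD with DMSO, and at 77.2 and 69.2 CPM in control and 16.4 and 17.6 CPM in FOXM1-KD under AraC (CPM scaled over these 8 libraries). The 2 log2 fold changes were -6.95 and -2.15 ± 0.10, and the difference was 4.86 (adjusted p = 6.23e-05 in edgeR). ANXA1, an anti-inflammatory annexin, was at 190 and 163 CPM against 5.99 and 7.20 CPM with DMSO and at 131 and 150 CPM against 93.0 and 111 CPM under AraC, a difference of 4.28. MST1P2 (3.96), its parent gene MST1 (3.93), which shares sequence with it, and ADM, the adrenomedullin gene (3.89), had the next largest positive differences under this limit. Below it, STAB1 had a called difference of 6.44, BCL2A1 of 4.53 and PLEKHG3 of 4.28. Their fitted log2 fold changes with DMSO were -15.27, -5.06 and -11.88. Values fitted to few counts in 1 arm depend on the prior count, so the sizes of these differences are uncertain.

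Under the same limit the largest negative differences were in H2BC3 (-3.88), MPO (-3.67), PTGER2 (-3.28), FHDC1 (-3.05) and DDN (-2.61). MPO was at 5140 and 4800 CPM in FOXM1-KD with DMSO and at 2180 and 1550 CPM in FOXM1-KD under AraC, while the control libraries were at 1.96 and 2.67 CPM with DMSO and 12.8 and 9.47 CPM under AraC. Under AraC MPO was thus higher in both control libraries and lower in both FOXM1-KD libraries than with DMSO.

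By list, 12 of 45 interferon-stimulated genes tested in the interaction were called with a more positive effect under AraC and none with a more negative one, against 4.36% and 1.31% of all genes. The falls of EPSTI1 (difference 3.69), RSAD2 (3.79) and CMPK2 (3.66) were each over 8-fold smaller than with DMSO. Among NF-kB and inflammatory genes it was 9 of 22, among monocyte genes 6 of 19 and among MHC class II genes 5 of 17, with none more negative in these lists. Among integrin and adhesion genes 9 of 32 had a more positive effect and 3 a more negative one, namely AHNAK (-1.28), ANXA5 (-1.22) and VIM (-1.28). ITGAM had a difference of 3.83, HLA-DQB1 of 2.62 and ICAM1 of 3.62. Of the 49 mitosis and G2/M genes 2 were called, a share near the 4.36% of all genes called with a more positive effect. These were PLK1 (1.28) and AURKA (1.17). Both rose more under AraC than with DMSO, where PLK1 had a log2 fold change of 1.11 and AURKA of 0.41. Each of them lost this call in 5 of the 8 fits with 1 library left out, namely those without control DMSO replicates 1 or 2, control AraC replicate 2, FOXM1-KD DMSO replicate 1 or FOXM1-KD AraC replicate 1. CCNE1, the G1/S cyclin, was higher in FOXM1-KD with DMSO (1.26) and not called under AraC (-0.23 ± 0.09), a difference of -1.42 that was not called without control DMSO replicate 1 or without control DMSO replicate 2. SAMHD1 rose less under AraC than with DMSO (5.51), by -1.99.

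**Figure D5:**
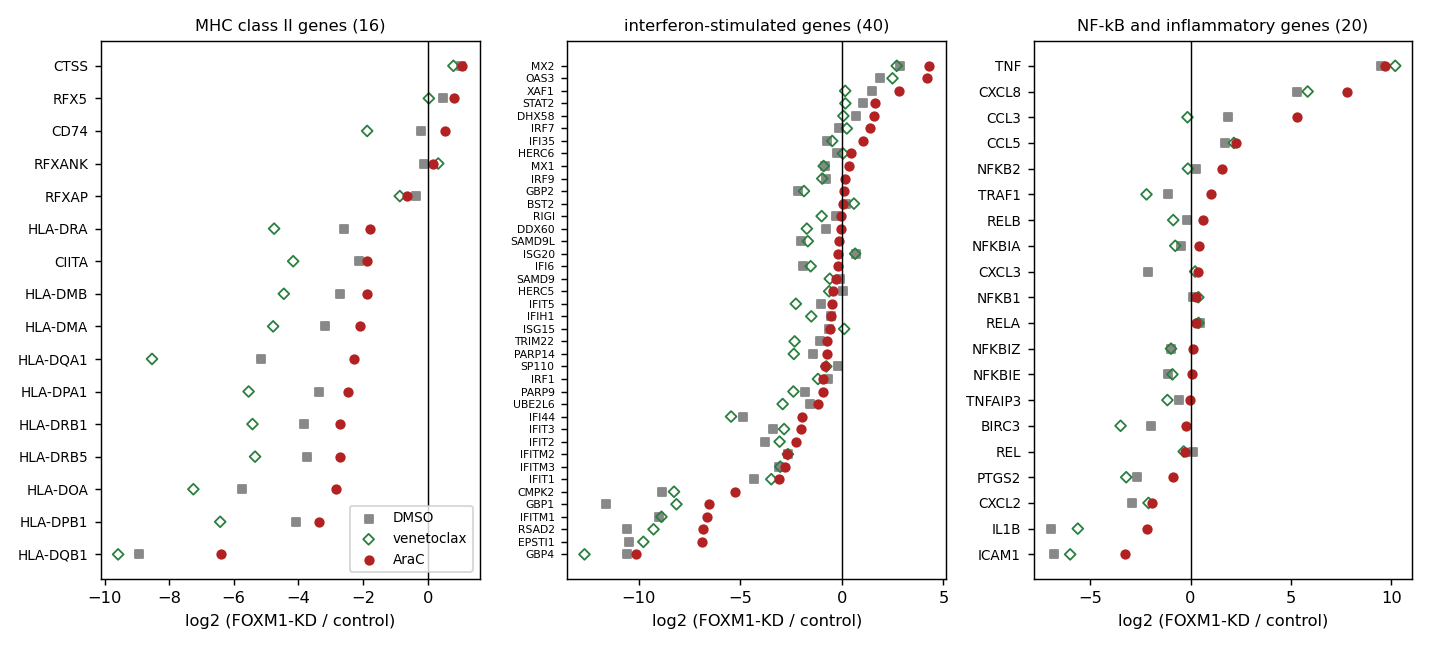
Log2 fold change of FOXM1-KD against control on the x axis under AraC (circles), with DMSO (squares) and under venetoclax (open diamonds) for members of 3 lists that were tested in all 3 comparisons, with the number of genes shown in each panel title. Values are fitted, and those of genes with few counts in one arm, such as GBP4, depend on the prior count. For HLA-DQB1, IL1B, ICAM1 and EPSTI1 the AraC value lies nearer to 0 than the other two.

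Against venetoclax the interaction with the block called 1502 of 14811 genes (10.1%), and without the block 308. Where all 8 libraries had 10 counts or more, the largest positive called differences were in TCP11L2 (4.69), SHANK3 (4.57), MST1 (4.57), MFAP4 (4.46) and ULBP1 (3.99), and the largest negative ones in AFF2 (-5.03), FHDC1 (-4.14), SLC2A5 (-3.94), CORO2A (-3.90) and RHOU (-3.71). MPO, which did not reach this limit, had a called difference of -5.23. SHANK3, a synaptic scaffold gene, was at 185 and 144 CPM in control and 24.6 and 16.9 CPM in FOXM1-KD under AraC, and at 453 and 175 CPM against 1.49 and 1.51 CPM under venetoclax. FHDC1 was called in both interactions. Control cells under AraC had 14.8 and 15.9 CPM and the other 6 libraries of the venetoclax fit had 0.591 to 2.05 CPM. Fits with 1 of the 8 libraries left out had no block, so they are to be set beside the 308 calls. In them the number of calls moved widely, and few or none remained when any 1 AraC library was left out.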

How the data were processed

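Gene counts of 16 RNA-seq libraries of KG-1 cells were used as the authors deposited them, as 1 table of whole-number counts per Ensembl gene for the whole series, with 0 rows that name no gene. Per the methods and the submitters' processing notes, STAR was used for alignment to the hg38 build and featureCounts for the counting. The labels name a different library kit from the methods, and whether molecular identifiers were used in counting is not given in the sources used here. Totals were 18627696 and 20535621 counts for the control AraC libraries and 15953805 and 18045126 for FOXM1-KD AraC (7351755 to 21362546 over the series). The 2 libraries of a group differed by more than sampling noise (chi-square per degree of freedom 18.25 and 32.11) and were kept as 2 replicates.

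Genes with a mean of at least 10 counts were tested with the quasi-likelihood test of edgeR 4.0.16 in R 4.3.3, with TMM scaling, the replicate number as a block, and Benjamini-Hochberg adjustment over all tested genes. A call needed a 2-fold change and an adjusted p below 0.1. The blocked fit had 1 residual degree of freedom, infinite prior degrees of freedom and a common dispersion of 0.0028 (0.0246 without the block). Its p-values and SEs therefore rest on a spread pooled over genes and not on the spread of each gene. SEs are given where all 4 libraries had at least 10 counts. Same-numbered libraries deviated together, with r = 0.772 between control AraC and FOXM1-KD AraC and r between 0.498 and 0.772 over 10 pairs of groups (10665 genes), so the numbers from the labels were used as pairs. Interactions were fitted over 8 libraries, with the block for venetoclax and without it for DMSO, whose columns carry no shared number. DESeq2 1.42.0, limma-voom (limma 3.58.1), other scalings, other filters and leaving out each library were alternatives. All fits with a library left out were made without the block. The scripts were tested on simulated data. Python 3.11.15, pandas 2.3.3 and matplotlib 3.10.9 were used for lists, promoters and plots.

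The gene lists and their members were chosen with earlier results of these data known. Named genes were FOXM1 and genes the study names, the 10 protein-coding genes with the largest rise and the 10 with the largest fall, the 5 most abundant genes of each kind at or under 3 counts in one group, the called members with the largest fold change and the defining members of each list, and the 5 largest interactions in each direction. Other list members were named after their values were seen. Some members of the lists are counted but not reported here by name.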

Additional observations from a re-analysis of the deposited data

Results flagged for a closer look

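The effect of the knockdown differed between treatments by a test of the difference itself. Against DMSO 843 genes were called by the interaction term of edgeR, and against venetoclax 1502. The count against venetoclax was 308 without the replicate block. Fits with 1 of the 8 libraries left out had no block, and both counts moved widely in them. Against venetoclax few or none of the calls remained when any 1 AraC library was left out. Among genes with at least 10 counts in all 8 libraries, the effect under AraC was more positive than with DMSO, on the log2 scale, in IL1B (by 4.86), ANXA1 (4.28), MST1P2 (3.96), MST1 (3.93) and ADM (3.89). It was more negative in H2BC3 (-3.88), MPO (-3.67), PTGER2 (-3.28), FHDC1 (-3.05) and DDN (-2.61). In MST1P2 the FOXM1-KD libraries under AraC were at 12.6 and 8.05 CPM and the other 6 libraries at 0.577 to 0.762 CPM. In H2BC3 both FOXM1-KD libraries were at 61.5 and 81.1 CPM with DMSO and at 8.80 CPM each under AraC, while the 4 control libraries were at 0.728 to 1.78 CPM.

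Relative to venetoclax the effect was more positive in TCP11L2 (4.69), SHANK3 (4.57), MST1 (4.57), MFAP4 (4.46) and ULBP1 (3.99) and more negative in AFF2 (-5.03), FHDC1 (-4.14), SLC2A5 (-3.94), CORO2A (-3.90) and RHOU (-3.71). In CORO2A the FOXM1-KD libraries under venetoclax were at 175 and 69.9 CPM and those under AraC at 29.6 and 23.2 CPM, so the venetoclax replicates differed widely. ULBP1, a ligand of the NKG2D receptor, was at 9.50 and 10.5 CPM in FOXM1-KD under AraC and at 0.846 to 3.99 CPM in the other 6 libraries.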

How the results depend on the processing

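The count of genes called under AraC was 5812 and lay between 5554 and 6946 over the other settings with all libraries, and between 5566 and 6147 with 1 library left out, and no gene was called in the opposite direction in any of these. Pairing by replicate number had little effect on it, with 5765 calls without the block, of which 5755 were called with it. Against DMSO the interaction count of 843 was 492 at an adjusted p below 0.05 (391 more positive, 101 more negative), and 334 to 1293 with 1 library left out (274 to 1041 and 49 to 377). It was 349 and 334 without control DMSO replicates 1 and 2, 347 without control AraC replicate 2, 559 without control AraC replicate 1, 461 without FOXM1-KD AraC replicate 1, and 1293 and 1290 without FOXM1-KD DMSO replicate 1 and FOXM1-KD AraC replicate 2. Against venetoclax the count of 1502 was 308 with no replicate block (221 and 87), 925 at an adjusted p below 0.05 (606 and 319), and 0 to 1665 with 1 library left out and no block (0 to 974 and 0 to 691). It was 14 and 35 without FOXM1-KD AraC replicates 1 and 2. Scaling by total counts moved the median venetoclax interaction from 0.048 to 0.164. The cause was not tested.

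With total counts only, DNMT1 (0.06), LMO2 (0.05) and TAP1 (0.06) changed sign, and with 8 numbered libraries in one fit they were 0.03, 0.01 and 0.02. With 1 library left out, the log2 fold changes of genes that changed sign ranged from -0.31 to 0.15 for AKT2, -0.12 to 0.13 for DNMT1, -0.22 to 0.20 for TAP1, -0.47 to 0.20 for CDK1, -0.50 to 0.20 for LIN9, -0.43 to 0.09 for RICTOR, -0.15 to 0.25 for LIN54, -0.09 to 0.30 for BAX, -0.03 to 0.24 for RHOU, -0.04 to 0.42 for RFXANK, -0.06 to 0.11 for DNMT3A, -0.02 to 0.40 for ATR, -0.02 to 0.73 for CENPF and -0.03 to 0.52 for PTPRC. With all 4 libraries none of these was called. FOXM1 kept its sign, between -0.69 and -0.47. Of the genes named as called under AraC, ATM, H1-2, NDC80, BTG2, H2AX, NUSAP1, POLE2, RRM2B, SLC29A2, UBE2C, BCL2L2, NME2 and TET2 fell to 2-fold or less in at least 1 of the fits without a library, and CDKN2D did so with total counts only. AKT1, CENPE, BCL2L1, MDM2 and HLA-B, which lay just under 2-fold, passed it in at least 1 of them. Of the 59 named genes called for a difference from DMSO, 26 lost the call in at least 1 of the 8 fits without a library, with 20 and 21 lost without control DMSO replicates 1 and 2, 13 and 14 without control AraC replicates 1 and 2, and 14 at an adjusted p below 0.05. PLK1 (adjusted p = 0.0656 in edgeR) and AURKA (0.0557) were among them, and ADM was the one of the 10 largest.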
